A study of Mus musculus with 8 samples.

Results

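The SLC25 family comprises the mitochondrial carriers, the membrane proteins that move nucleotides, phosphate, carboxylates, amino acids, cofactors and metals across the inner mitochondrial membrane. The genes described here were taken by symbol alone: every gene of the deposited expression table named Slc25a followed by a number, with 1 exception, together with the uncoupling proteins Ucp1, Ucp2 and Ucp3, which belong to the same family. This gave 47 of the 17634 genes in the table, and 40 of the 47 had enough counts to be tested. The rule uses symbols and no measured value, although earlier results of these data were known when the family was picked.

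The samples were small intestinal crypts of C57BL/6N mice collected 3 days after irradiation. Crypts are the pockets of the intestinal lining in which stem cells divide. Total RNA was sequenced from 4 libraries of wild-type mice (WT) and 4 libraries of miR-29ab1-/- mice, called the knockout here, which lack the cluster that encodes miR-29a together with 1 copy of miR-29b. Every library, the wild-type ones included, came from an irradiated mouse, so the data hold no unirradiated control. The sources used here do not give the radiation dose or the age and sex of the mice.

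A mitochondrial carrier is built from repeated pairs of membrane-spanning helices around a central binding site, which opens in turn to the cytosol and to the matrix so that 1 compound is usually exchanged for another. Carriers are encoded in the nucleus and inserted into the inner membrane by the TIM22 machinery after entry through the TOM pore. In the intestine they link the matrix to the cytosol for ATP export, for glutamine and glutamate use, for citrulline and ornithine synthesis and for the movement of reducing equivalents, and division and differentiation of crypt cells draw on these routes to different degrees.

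The locus absent from the knockout encodes short RNAs that pair with messenger RNAs through their seed, bases 2 to 8. The mature sequences are shown because they define the match that was looked for in the carriers' 3′ untranslated regions. They are from RefSeq on GRCm38.p6, with the seed in capitals. Mir29a lies at chr6:31062673-31062694 and Mir29b-1 at chr6:31063025-31063047, both on the minus strand. Mir29c lies on chromosome 1, outside the deleted cluster, and shares the seed, and a second copy of miR-29b (Mir29b-2) lies beside it.
mmu-miR-29a-3p: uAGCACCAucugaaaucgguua
mmu-miR-29b-3p: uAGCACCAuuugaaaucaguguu
mmu-miR-29c-3p: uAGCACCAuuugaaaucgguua

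A match to this seed (TGGTGCT on the messenger RNA's own strand) was present in the longest annotated 3′ untranslated region of 7 of the 40 tested carriers, 17.5%, against 2136 of 12677 tested genes with such a region, 16.8%. The carriers were therefore no richer in matches than other genes by this count. The matched stretches of the 5 that differed between genotypes are shown on GRCm38, each read along the messenger RNA with the match in capitals. They lie at chr7:141429987-141430009 (Slc25a22), chr4:141619708-141619730 (Slc25a34), chr9:97077777-97077799 (Slc25a36), chr4:45397991-45398013 (Slc25a51) and chr4:149744154-149744176 (Slc25a33), all on the minus strand.
Slc25a22: gattgactgaagtgcTGGTGCTg
Slc25a34: tatttcagttatctgTGGTGCTg
Slc25a36: aattaaactctagtgTGGTGCTc
Slc25a51: gtttatttttttaaaTGGTGCTA
Slc25a33: tctgagtcagggtctTGGTGCTg

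The first 4 of these transcripts were higher in the knockout and Slc25a33 was lower, against 504 higher and 469 lower among the 2136 tested genes with a match. The match in Slc25a51 is followed by an A, which extends it to an 8-base site. Slc25a16 and Ucp2 held a match as well and were not called, and Ucp3 held one but was too scarce to test. The median log2 fold change was 0.69 over the 7 tested carriers with a match and 0.16 over those without, whereas over all tested genes it was 0.03 in both classes. A match is a string of letters and not a measured binding site, and the members are too few for this difference to be read as a property of the family.

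Among the 40 tested carriers, 14 were higher and 5 were lower in the knockout, and 21 did not pass the test (edgeR quasi-likelihood test, Benjamini-Hochberg adjusted p below 0.05 over all 12908 genes tested). Much of the transcriptome differed between these genotypes, since 47.3% of all tested genes were called, 24.2% higher and 23.1% lower. The carriers' share of calls, 47.5%, was near that background, with 35% called higher and 12.5% lower. Their median log2 fold change was 0.21 against 0.03 over all tested genes. All 4 knockout libraries lay above or below all 4 wild-type libraries for 16 carriers, 40%, against 45.4% of all tested genes, and 11 of the 16 were higher and 5 lower. Because p-values rest on samples that the labels do not describe as separate animals, they measure the spread between these 8 libraries only, and in such tissue samples a change in the number of cells of a type and a change in RNA per cell cannot be told apart.

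The balance of higher over lower depends on the scaling between libraries. With each library scaled by its total count, the median of all tested genes moved from 0.03 to -0.23 on the log2 scale, and the carriers split into 11 higher and 11 lower. Of the 19 carriers called, 11 kept their call under each of the 16 alternative fits, namely Slc25a15, Slc25a22, Slc25a24, Slc25a32, Slc25a34, Slc25a36, Slc25a37, Slc25a42, Slc25a44, Slc25a45 and Slc25a51. The other 8 lost it when at least 1 library was left out, which is stated beside each one described.

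**Figure D1:**
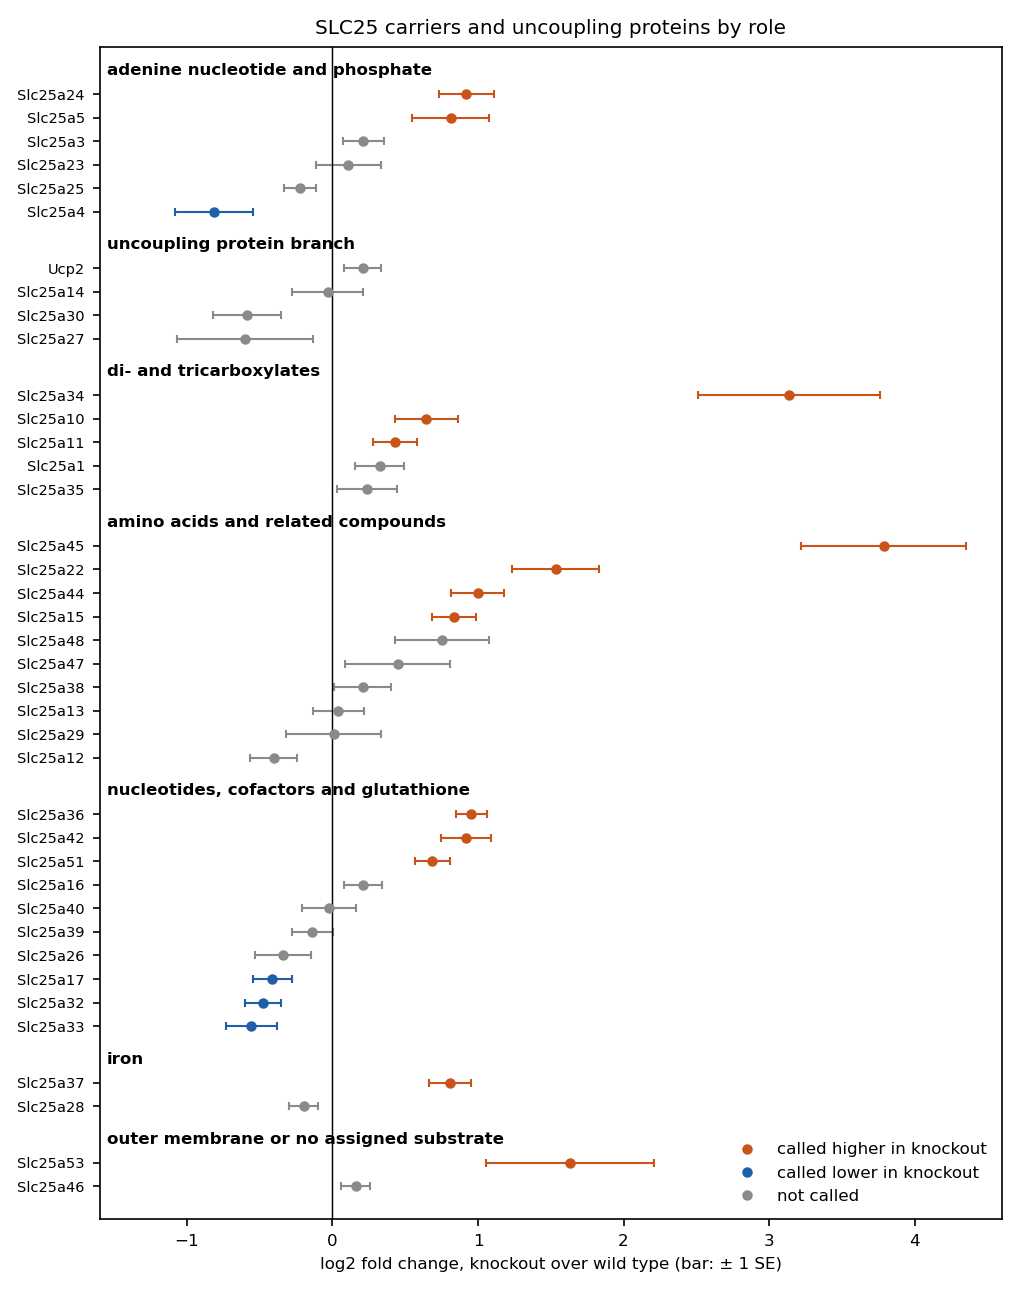
Log2 fold change, knockout over wild type, of 39 of the 40 tested carriers, grouped by role, with bars of 1 SE from the edgeR fit. Slc25a45 at 3.79 and Slc25a34 at 3.14 stand to the right of the others, the 4 tested members of the uncoupling protein branch are all uncalled, and the carriers of nucleotides, cofactors and glutathione hold calls in both directions.

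Levels between genes are compared per transcript length, as FPKM (fragments scaled to transcript length and library total). Among the 40 tested carriers, the mean over the wild-type libraries spanned from 0.468 FPKM for Slc25a53 to 872 FPKM for Slc25a5, the ADP/ATP exchanger of dividing and many epithelial cells. Only 4 carriers held 73.9 to 78.2% of the family's summed FPKM in each library: Slc25a5, the phosphate carrier Slc25a3, the uncoupling protein Ucp2 and the glutathione carrier Slc25a39. In wild type Slc25a5 read 909, 1021, 779 and 778 FPKM in replicates 1 to 4, and in the knockout 1450, 1491, 882 and 1130 FPKM. Knockout replicate 3 lay inside the wild-type range, and the other knockout libraries lay above it.

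Slc25a3, which brings in the phosphate used for ATP synthesis, was the second most abundant at 582, 571, 574 and 570 FPKM in wild type and 538, 568, 551 and 530 in the knockout. Ucp2, which is common in immune and epithelial cells and exports dicarboxylates, followed at 401, 413, 409 and 413 FPKM in wild type and 363, 398, 432 and 369 in the knockout. Slc25a39 came next at 134, 123, 133 and 125 FPKM in wild type and 84.2, 109, 99.9 and 87.2 in the knockout. These FPKM values are scaled by library totals, and on that scale Slc25a3 and Ucp2 lay slightly lower in the knockout, while with TMM factors their log2 fold changes were 0.21 (SE 0.141, edgeR adjusted p = 0.241) and 0.21 (SE 0.126, edgeR adjusted p = 0.201). Neither passed the test on either scale. Slc25a39 did on the scale of library totals, where its groups were separate (log2 -0.44 on log2(FPKM + 0.5), limma adjusted p = 0.00801), but not with TMM factors (edgeR adjusted p = 0.442).

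The order of the levels was steep at the top and shallow below. Slc25a5, Slc25a3, Ucp2 and Slc25a39 had wild-type ranges that did not overlap one another, whereas Slc25a22 at 43.5 ± 11.4 FPKM (SD, n = 4) and Slc25a24 at 50.2 ± 3.48 FPKM (SD, n = 4) overlapped. Counts of the whole family made up 0.388 to 0.421% of each wild-type library and 0.434 to 0.507% of each knockout library.

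**Figure D2:**
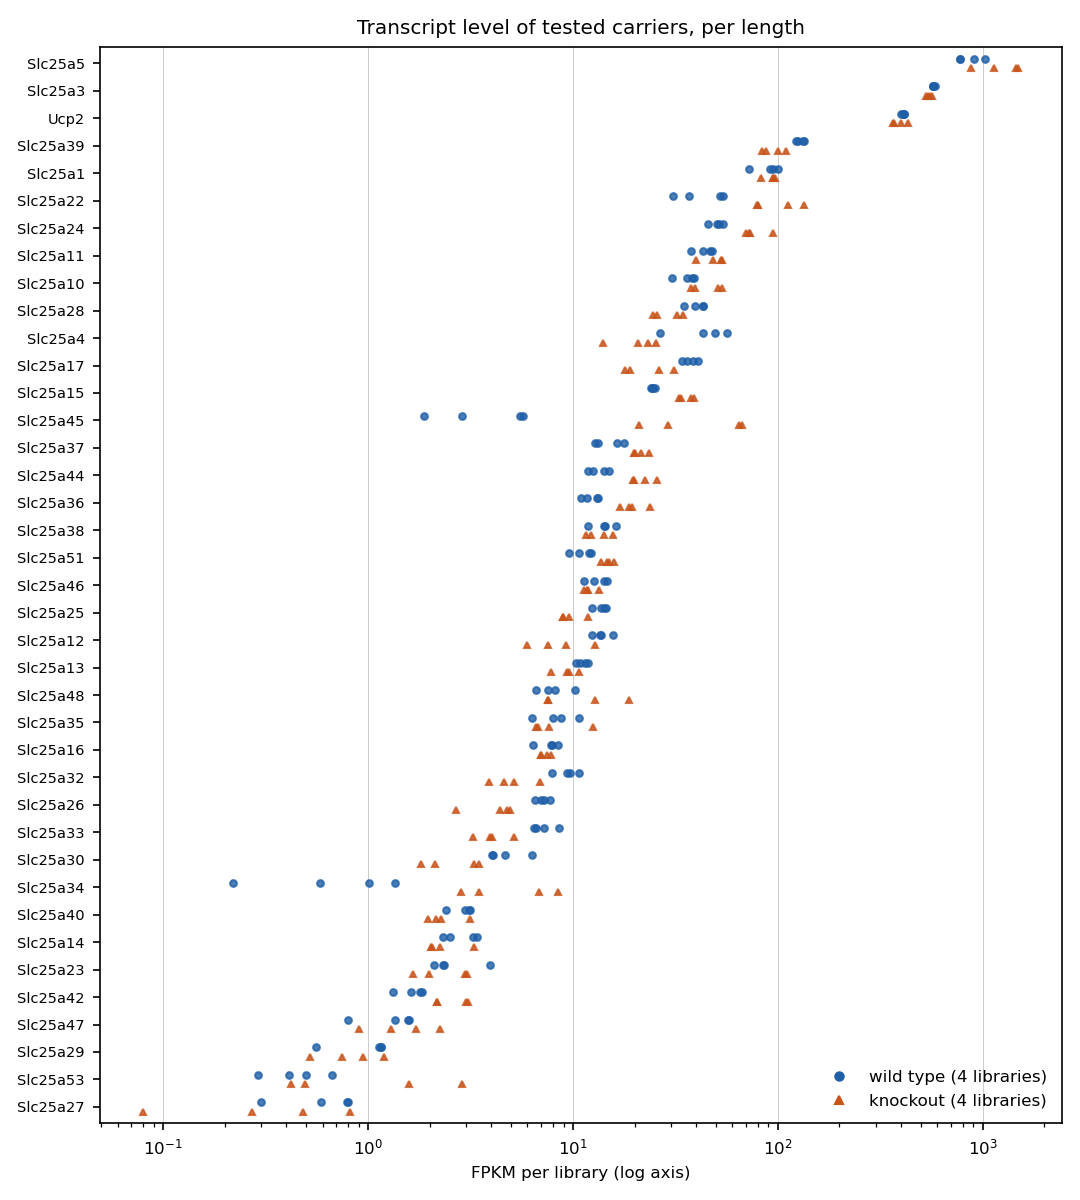
FPKM of 39 of the 40 tested carriers in each library on a log axis, ordered by the mean over all libraries, with wild type as circles and knockout as triangles. The 4 most abundant carriers sit at the top, and for Slc25a45 and Slc25a34 the knockout libraries are displaced to the right of all wild-type libraries.

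Libraries held 9481191 to 16231089 counts each, and the crypt label can be set beside the markers of the cells such a preparation holds. Summed enterocyte markers, the genes of mature absorptive cells, ran from 2660 to 12545 CPM (counts scaled to library size with TMM factors) in wild type and from 29875 to 98259 CPM in the knockout, with 12 of 12 higher. Summed cell division markers ran from 1839.5 to 2294.9 CPM in wild type and from 663 to 1104 CPM in the knockout, with 10 of 10 lower. Tuft cell markers were higher for 6 of 7 tested and summed to 19.3 to 26.7 CPM in wild type and 52.4 to 70.3 CPM in the knockout, and goblet and enteroendocrine markers were higher for 6 of 8 and summed to 1278 to 2353 and 3841 to 5620 CPM. Fibroblast markers were called for 1 of 6, with sums of 35.5 to 220 CPM in wild type and 36.7 to 253 CPM in the knockout, highest in wild-type replicate 3 and knockout replicates 3 and 4. Immune markers were called for 0 of 8 with sums of 41.3 to 164 and 90.9 to 634 CPM, red blood cell markers for 0 of 3 with 9.51 to 21.3 and 17.0 to 22.6 CPM, smooth muscle markers for 0 of 2 with 3.50 to 5.62 and 2.32 to 9.47 CPM, and enteric neuron and glia markers for 2 of 2, both higher, with 6.88 to 12.1 and 13.5 to 18.5 CPM. For the 3 lists with 0 calls, 0 genes were also called by DESeq2 or had an unadjusted p under 0.05. The part of these differences in the carriers' values was not tested.

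Carriers of adenine nucleotides and phosphate, which supply the ATP synthase and export its product, numbered 7, of which 6 were tested, and 2 rose and 1 fell. Here and for the other roles, the shares over all tested genes were 24.2% called higher and 23.1% lower. Slc25a5, the ADP/ATP exchanger with the most abundant transcript here, read 1019, 1132, 769 and 823 CPM in wild type and 2123, 2110, 983 and 1360 CPM in the knockout, a 1.76-fold rise (log2 0.81, SE 0.265, edgeR adjusted p = 0.0312). The groups overlapped through knockout replicate 3, and the call was lost without any 1 of 5 libraries (wild-type replicates 1, 3 and 4, knockout replicates 1 and 2), with edgeR adjusted p between 0.0607 and 0.109, and with limma on FPKM (adjusted p = 0.0648). Slc25a4, the isoform of heart and muscle, moved the opposite way.

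Slc25a4 read 40.5, 46.0, 22.0 and 50.5 CPM in wild type and 17.2, 30.2, 19.5 and 23.5 CPM in the knockout, 1.76-fold lower (log2 -0.81, SE 0.267, edgeR adjusted p = 0.0325). Wild-type replicate 3 lay inside the knockout range. Its call was lost without any 1 of 6 libraries, all except wild-type replicate 3 and knockout replicate 2, with edgeR adjusted p between 0.0519 and 0.0868. Slc25a4 and Slc25a5 are close paralogs and Slc25a5 has a named pseudogene, so the assignment of reads between them is uncertain.

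Slc25a24, a calcium-regulated carrier that exchanges ATP-Mg for phosphate, read 156, 160, 125 and 157 CPM in wild type and 388, 287, 225 and 232 CPM in the knockout, a 1.89-fold rise (log2 0.92, SE 0.190, edgeR adjusted p = 0.00429). All 4 knockout libraries lay above all wild-type ones. Its relatives Slc25a23 (log2 0.11, SE 0.225) and Slc25a25 (log2 -0.22, SE 0.110) did not pass, with edgeR adjusted p of 0.711 and 0.127, although Slc25a25 was called lower with upper-quartile factors (edgeR adjusted p = 0.0374), total-count scaling (edgeR adjusted p = 0.013) and limma on FPKM (adjusted p = 0.017). Slc25a41, the calcium-independent form, was at 0 or 1 count in every library.

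In the uncoupling protein branch, whose founding member lets protons leak in brown fat to make heat, 0 of 4 tested members were called by edgeR, against 1, Slc25a30, at an unadjusted p under 0.05 and the same 1 by DESeq2. Slc25a30 came closest at 6.13, 6.46, 6.34 and 9.25 CPM in wild type and 3.60, 4.07, 5.48 and 5.61 CPM in the knockout (log2 -0.59, SE 0.234, edgeR adjusted p = 0.0649). Its groups did not overlap, and it was called lower when the replicate number was a block (edgeR adjusted p = 0.0365) and by DESeq2 (adjusted p = 0.0459). Other scalings (edgeR adjusted p = 0.0448 with upper-quartile factors and 0.0458 with total counts), limma on FPKM (adjusted p = 0.0235) and the fit without knockout replicate 4 (edgeR adjusted p = 0.0432) called it too. Slc25a27, a form typical of neurons, and Slc25a14 had log2 fold changes of -0.60 (SE 0.466) and -0.03 (SE 0.243).

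Ucp1, the brown-fat form, had 0, 1, 0 and 0 counts in wild type and 4, 4, 1 and 1 in the knockout, and Ucp3, the muscle form, had 2, 1, 1 and 0 counts and 0, 0, 1 and 2. Both were too scarce to test. Of the adipocyte markers, only Cidec, which enterocytes also use in lipid storage, had enough counts to test and it was higher, while the other 5 (Adipoq, Cfd, Cidea, Plin1 and Retn) lay between 0 and 0.448 CPM in each library. Cidea, which marks brown fat as Ucp1 does, read 0, 0, 0.0598 and 0.275 CPM in wild type and 0.0858, 0.442, 0.299 and 0.187 CPM in the knockout.

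Carriers of di- and tricarboxylates, which move citrate, malate, succinate and oxoglutarate, had 3 of 5 tested members higher and 0 lower in edgeR and in DESeq2, and 0 lower at an unadjusted p under 0.05. Slc25a34, a carrier without a settled substrate, showed the second largest rise of the family. It read 2.47, 3.32, 1.26 and 0.496 CPM in wild type and 27.4, 21.2, 6.88 and 9.17 CPM in the knockout, an 8.79-fold rise (log2 3.14, SE 0.625, edgeR adjusted p = 0.00367). The groups were separated, and in the knockout replicates 1 and 2 stood well above replicates 3 and 4. Those same knockout replicates had the highest enterocyte marker sums, 98259 and 83742 CPM against 29875 and 46396 CPM in replicates 3 and 4. The part of enterocyte RNA in the rise of Slc25a34 was not tested.

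Slc25a10, the dicarboxylate carrier, rose from 126.9 ± 18.7 to 199 ± 59.0 CPM (SD, n = 4 each; log2 0.65, edgeR adjusted p = 0.035), and Slc25a11, the oxoglutarate carrier of the malate-aspartate shuttle, from 66.1 ± 6.83 to 89.2 ± 17.1 CPM (log2 0.43, edgeR adjusted p = 0.0423). Both calls were fragile. Slc25a10 lost its call without any 1 of 6 libraries (all but knockout replicates 3 and 4), with edgeR adjusted p up to 0.132, and Slc25a11 without any 1 of 7 (all but knockout replicate 4), with p up to 0.166. Total-count scaling ended both calls (edgeR adjusted p = 0.0859 and 0.384), as did limma on FPKM (adjusted p = 0.0838 and 0.365), and Slc25a11 also lost its call with upper-quartile factors (edgeR adjusted p = 0.0834) and with no count filter (edgeR adjusted p = 0.07). Slc25a11 also shares 8.92% of its exon bases with Rnf167 on the other strand, and the sources used here do not say whether counting used the strand.

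The citrate exporter Slc25a1, which feeds cytosolic acetyl-CoA for lipid synthesis, went from 127.4 ± 21.4 to 160 ± 28.2 CPM (SD, n = 4 each) without passing the test (log2 0.33, SE 0.168, edgeR adjusted p = 0.139), although it did with the replicate number as a block (edgeR adjusted p = 0.0205). Slc25a35, the relative of Slc25a34, had a log2 fold change of 0.24 (SE 0.207), and 31.3% of its exon bases overlap Rangrf on the other strand. Slc25a21, the oxodicarboxylate carrier, had at most 1 count in a library.

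Carriers of amino acids and related compounds formed the largest group, with 12 members and 10 tested, and 4 were higher and 0 lower in edgeR and in DESeq2 at a median log2 fold change of 0.60. At an unadjusted p under 0.05, 1 was lower, Slc25a12. Slc25a45, a relative of the carnitine and basic amino acid carriers, had the largest rise of all 40. It read 9.65, 9.78, 4.36 and 3.08 CPM in wild type and 144, 135, 48.6 and 38.3 CPM in the knockout, a 13.8-fold rise (log2 3.79, SE 0.565, edgeR adjusted p = 0.00136). The lowest knockout library lay above the highest wild-type library. As for Slc25a34, replicates 1 and 2 were the highest within each group. These are also the replicates with the highest enterocyte marker sums in each group, 12545 and 12524 CPM against 4669 and 2660 CPM in wild type. Between knockout replicates 3 and 4 the order differed, with Slc25a45 higher in replicate 3 and the marker sum higher in replicate 4 (29875 against 46396 CPM). The part of enterocyte RNA in the rise of Slc25a45 was not tested.

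Slc25a22, which carries glutamate into the matrix with a proton, read 127, 123, 76.5 and 66.9 CPM in wild type and 421, 243, 184 and 292 CPM in the knockout, a 2.90-fold rise (log2 1.53, SE 0.300, edgeR adjusted p = 0.00335). The groups were separated. Its paralog Slc25a18 had 1 count over all 8 libraries, so nearly all measured transcript of the dedicated glutamate carriers was Slc25a22.

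Slc25a44, the carrier of branched-chain amino acids, rose from 42.0 ± 6.67 to 83.8 ± 19.5 CPM (SD, n = 4 each; log2 1.00, SE 0.182, edgeR adjusted p = 0.00251). Slc25a15, which exchanges ornithine for citrulline, read 80.9, 77.0, 69.1 and 73.6 CPM in wild type and 157, 158, 107 and 113 CPM in the knockout, a 1.78-fold rise (log2 0.83, SE 0.152, edgeR adjusted p = 0.00249). Both were separated between the groups. The other ornithine carrier, Slc25a2, had 0 to 2 counts per library.

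The aspartate/glutamate carriers of the malate-aspartate shuttle did not pass. Slc25a12 read 36.2, 36.5, 29.1 and 39.4 CPM in wild type and 20.9, 25.6, 33.9 and 26.5 CPM in the knockout (log2 -0.40, SE 0.161, edgeR adjusted p = 0.0663), and knockout replicate 3 alone lay inside the wild-type range. It was called lower under 5 alternatives, with adjusted p of 0.0359 under upper-quartile factors, 0.0393 when scaled by total counts, 0.0289 by limma on FPKM, 0.0451 without wild-type replicate 3 and 0.0149 without knockout replicate 3. Slc25a13 had a log2 fold change of 0.04 (SE 0.174, edgeR adjusted p = 0.863). Among the rest, Slc25a48, a choline carrier, was at 0.75 (SE 0.321, edgeR adjusted p = 0.0814, and 0.0215 without knockout replicate 3), Slc25a47 at 0.45 (SE 0.361), the glycine carrier Slc25a38 at 0.21 (SE 0.196) and the basic amino acid carrier Slc25a29 at 0.01 (SE 0.326).

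Carriers of nucleotides, cofactors and glutathione were divided, with 3 of 11 higher and 4 lower at a median log2 fold change of -0.14. Slc25a36, a pyrimidine nucleotide carrier needed for mitochondrial DNA and RNA, had the smallest p of the family. It read 46.7, 58.2, 50.02 and 47.1 CPM in wild type and 96.0, 105, 101 and 89.8 CPM in the knockout, a 1.94-fold rise (log2 0.95, SE 0.106, edgeR adjusted p = 0.00108). The spread within each group was small beside the gap between them.

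Slc25a33, the other pyrimidine nucleotide carrier and one induced by insulin signalling, read 11.1, 14.3, 9.56 and 11.3 CPM in wild type and 7.12, 8.57, 8.58 and 7.11 CPM in the knockout, 1.47-fold lower (log2 -0.56, SE 0.174, edgeR adjusted p = 0.0262). The groups did not overlap, but the call was lost without wild-type replicate 1, 2 or 4 (edgeR adjusted p between 0.0527 and 0.0761). An antisense gene overlaps 14.9% of its exon bases.

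The coenzyme A carrier Slc25a42 rose from 4.56 ± 0.464 to 8.65 ± 0.710 CPM (SD, n = 4 each; log2 0.92, SE 0.171, edgeR adjusted p = 0.00274), and the NAD carrier Slc25a51 from 43.9 ± 5.22 to 70.6 ± 7.63 CPM (log2 0.69, SE 0.123, edgeR adjusted p = 0.00234). Other carriers of this group fell. Slc25a32, which carries folate or FAD, went from 30.4 ± 3.73 to 21.9 ± 2.05 CPM (log2 -0.48, edgeR adjusted p = 0.0127). The peroxisomal carrier Slc25a17 went from 52.5 ± 4.87 to 39.5 ± 6.59 CPM (log2 -0.41, edgeR adjusted p = 0.0308), with overlapping groups, and its call was lost without any 1 of 5 libraries (wild-type replicates 1, 2 and 4, knockout replicates 1 and 3).

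The S-adenosylmethionine carrier Slc25a26 was at log2 -0.34 (SE 0.194, edgeR adjusted p = 0.176). For the glutathione carriers Slc25a39 and Slc25a40 the values were -0.14 (SE 0.141) and -0.02 (SE 0.188), and for Slc25a16 the value was 0.21 (SE 0.129). None of these 4 passed the test with TMM factors. Scaling by total counts called Slc25a26 and Slc25a39 lower (edgeR adjusted p of 0.0461 and 0.0192), and so did limma on FPKM (adjusted p of 0.0115 and 0.00801) and the fit that left out knockout replicate 2 (edgeR adjusted p of 0.0429 and 0.047).

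Mitoferrins bring iron into the matrix for heme and iron-sulfur clusters. Slc25a37, mitoferrin-1, is best known from red cell precursors and read 50.7, 52.0, 62.0 and 61.5 CPM in wild type and 124, 102, 86.5 and 84.0 CPM in the knockout, a 1.75-fold rise (log2 0.81, SE 0.146, edgeR adjusted p = 0.00245). The groups were separated. Summed red blood cell markers stood at 9.51, 11.2, 21.3 and 12.7 CPM in wild-type replicates 1 to 4 and at 17.0, 17.1, 22.6 and 22.6 CPM in the knockout. In wild type both the sum and Slc25a37 were lowest in replicates 1 and 2, whereas in the knockout Slc25a37 was highest in the replicates with the lower sums. The part of red blood cell RNA in this result was not tested.

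Slc25a28, mitoferrin-2, the form used outside the red cell lineage, read 42.4, 51.4, 42.6 and 48.2 CPM in wild type and 39.5, 38.1, 41.7 and 41.7 CPM in the knockout (log2 -0.20, SE 0.100, edgeR adjusted p = 0.133). It was not called with TMM factors, although its groups did not overlap. Upper-quartile factors did call it lower (log2 -0.29, edgeR adjusted p = 0.0391), as did total-count scaling (log2 -0.45, edgeR adjusted p = 0.0304) and limma on FPKM (log2 -0.46, adjusted p = 0.0211).

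Slc25a46, an outer membrane member tied to the shape of mitochondria, was at log2 0.16 (SE 0.103, edgeR adjusted p = 0.228). Slc25a53, which has no assigned substrate, read 1.76, 1.44, 1.20 and 0.881 CPM in wild type and 5.23, 1.33, 8.08 and 1.68 CPM in the knockout (3.09-fold, log2 1.63, SE 0.577, edgeR adjusted p = 0.0431). The rise rested on knockout replicates 1 and 3, since replicates 2 and 4 lay within the wild-type range, and the call was lost without any 1 of 6 libraries (all but knockout replicates 2 and 4). It was also lost with upper-quartile factors (edgeR adjusted p = 0.0526), total-count scaling (edgeR adjusted p = 0.0843) and limma on FPKM (adjusted p = 0.151). Slc25a43 had 2 to 10 counts in each library and was not tested.

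**Figure D3:**
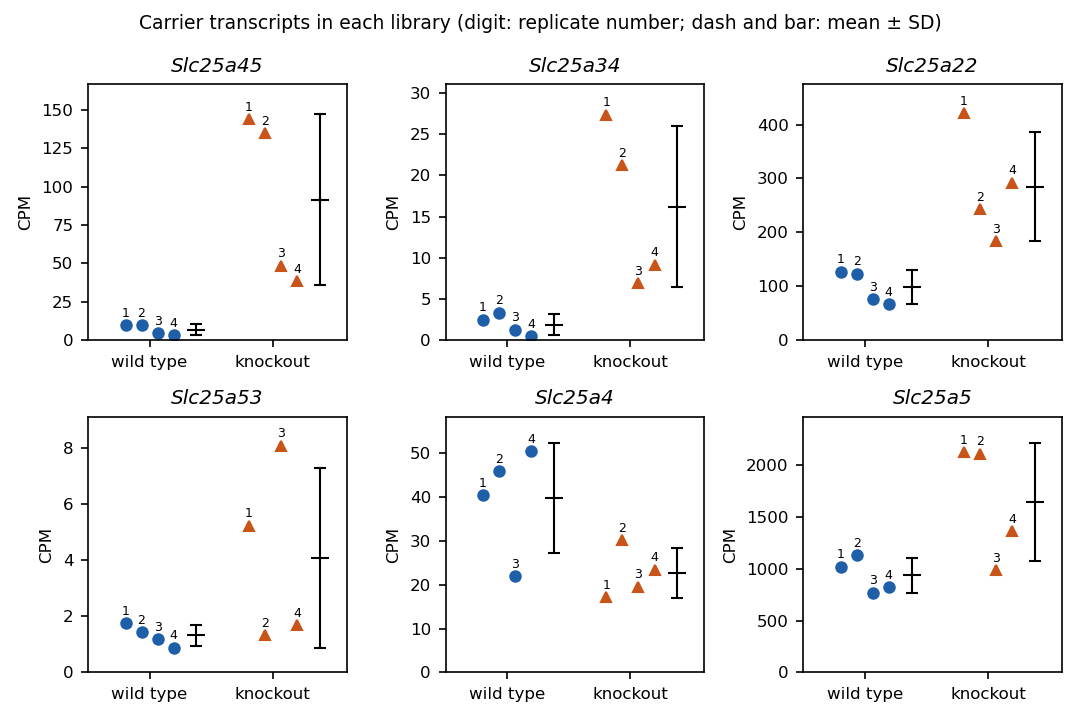
CPM in each library for 4 carriers with rises of at least 2-fold and for the ADP/ATP exchangers Slc25a4 and Slc25a5, with the replicate number above each point and the mean ± SD at the side. Slc25a45, Slc25a34 and Slc25a22 separate the groups, Slc25a53 rests on 2 knockout libraries, and Slc25a4 and Slc25a5 move in opposite directions with overlapping groups.

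Several carriers come as isoforms for a similar cargo, and the ratio of a pair within a library does not depend on how libraries are scaled. Ratios of 11 pairs were compared by an exact two-sided permutation test over the 70 ways of splitting the libraries, whose smallest possible p is 0.029. In 6 pairs the groups did not overlap and reached this value, but after Benjamini-Hochberg adjustment over the 11 pairs 0 passed the threshold (adjusted p = 0.052). With 6 pairs at the smallest possible p, 0.052 is the lowest adjusted p that they can take. The threshold could therefore not be passed however large a change was, and no conclusion is drawn from this outcome. Taken singly, 45.4% of all tested genes had groups that did not overlap, and no such share was computed for ratios of other genes. In each separated pair except Slc25a4 and Slc25a5, at least 1 partner separated the groups by itself. All 11 ratios rest on the same 8 libraries, and with the replicates paired by number the smallest p that a sign-flip test allows is 0.125.

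For the ADP/ATP exchangers, the log2 ratio of Slc25a4 to Slc25a5 went from -4.60 ± 0.449 in wild type to -6.13 ± 0.566 in the knockout (SD, n = 4 each), a 2.89-fold decrease (exact permutation p = 0.029). In FPKM, Slc25a5 exceeded Slc25a4 by 13.7 to 29.4 times in wild type and by 42.3 to 103 times in the knockout. For the pyrimidine nucleotide carriers, the log2 ratio of Slc25a33 to Slc25a36 went from -2.12 ± 0.165 to -3.62 ± 0.0819, a 2.82-fold decrease (exact permutation p = 0.029), with the tightest groups of the 11 pairs in the knockout.

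For the mitoferrins, the log2 ratio of Slc25a37 to Slc25a28 went from 0.29 ± 0.217 to 1.28 ± 0.304, a 1.98-fold increase (exact permutation p = 0.029). For the ATP-Mg/phosphate carriers, the log2 ratio of Slc25a25 to Slc25a24 went from -1.90 ± 0.146 to -3.02 ± 0.353, a 2.17-fold decrease (exact permutation p = 0.029). The other 2 separated pairs were Slc25a34 over Slc25a35, which went up 7.04-fold, and Ucp2 over Slc25a30, which went up 1.71-fold (exact permutation p = 0.029 each). Slc25a35 stood at 13.1, 14.3, 15.7 and 9.69 CPM in wild type and 14.2, 15.7, 20.2 and 11.9 CPM in the knockout, and Slc25a25 at 37.7, 41.6, 38.3 and 41.5 CPM and 35.3, 34.2, 28.8 and 38.3 CPM, so in both pairs the partner that was called moved further.

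The remaining 5 ratios overlapped between the groups: Slc25a12 over Slc25a13, Slc25a23 over Slc25a24, Slc25a39 over Slc25a40, Slc25a10 over Slc25a11 and Slc25a15 over Slc25a29. Their exact permutation p-values ran from 0.057 to 0.40.

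**Figure D4:**
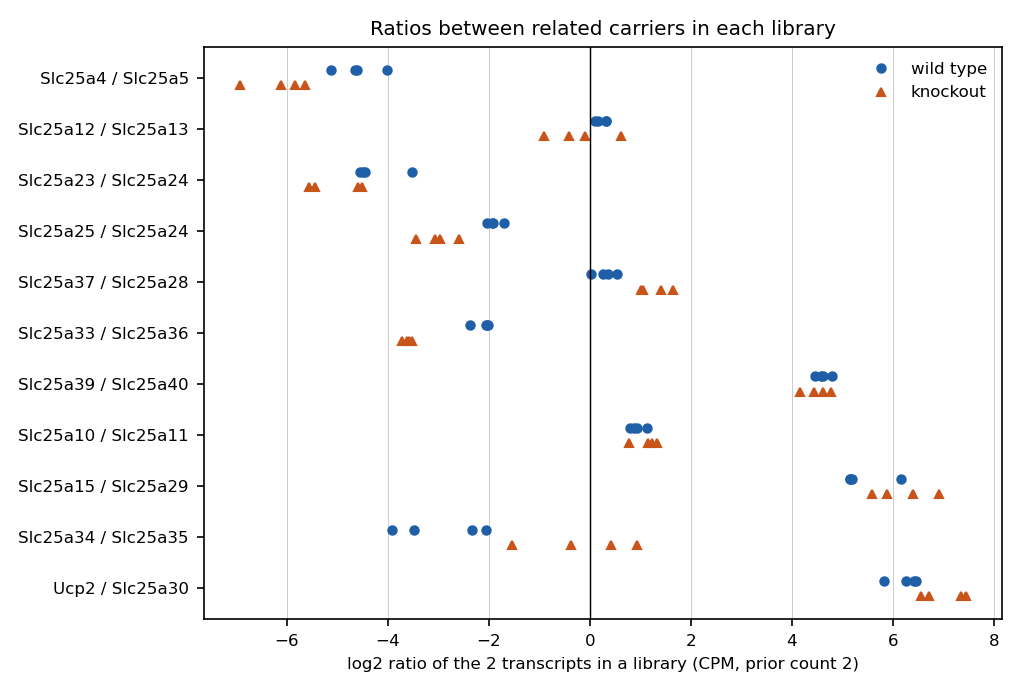
Log2 ratio of 2 related carriers in each library for the 11 pairs, with wild type as circles and knockout as triangles. In 6 pairs, Slc25a4/Slc25a5, Slc25a25/Slc25a24, Slc25a37/Slc25a28, Slc25a33/Slc25a36, Slc25a34/Slc25a35 and Ucp2/Slc25a30, the symbols of the groups do not overlap. Taken singly, 45.4% of all tested genes had groups that did not overlap.

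Genes that insert carriers or work beside them were read from the same fit, as counts and medians of lists with no test of the list. The list counts are to be read beside the shares over all tested genes, 24.2% called higher and 23.1% lower. The carrier import list, the TOM receptors and pore, the small chaperones of the intermembrane space and the TIM22 complex, had 0 of 13 higher and 11 lower in edgeR at a median log2 fold change of -0.63, and 0 higher and 10 lower in DESeq2. At an unadjusted p under 0.05, 0 were higher and 12 lower. The 3 with the smallest p were the chaperones Timm10 (log2 -0.91, SE 0.129, edgeR adjusted p = 0.00121) and Timm8a1 (log2 -0.88, SE 0.145, edgeR adjusted p = 0.00182) and the pore Tomm40 (log2 -0.89, SE 0.151, edgeR adjusted p = 0.00196). Summed over the list, the level was 1147 to 1535 CPM in wild type and 784 to 1020 CPM in the knockout. The cell division markers were lower in those libraries too, and their part in the import list was not tested.

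Other transporters of the mitochondrial membranes, such as the pyruvate carrier, the calcium uniporter and the porins, had 7 of 24 higher and 4 lower at a median of 0.21. The heme-linked exporter Abcb10 (log2 1.21, edgeR adjusted p = 0.00139) and the uniporter regulator Micu2 (log2 0.75, edgeR adjusted p = 0.0119) rose, and the outer membrane protein Tspo (log2 -0.76, edgeR adjusted p = 0.0049) fell.

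Enzymes of the malate-aspartate and citrate shuttles, which use the substrates of Slc25a11, Slc25a12, Slc25a13, Slc25a22 and Slc25a1, had 10 of 14 higher and 3 lower at a median of 0.92. Alanine aminotransferase Gpt rose from 30.1 ± 23.2 to 293 ± 143 CPM (log2 3.29, edgeR adjusted p = 0.00443), cytosolic malate dehydrogenase Mdh1 from 244 ± 50.8 to 709 ± 280.2 CPM (log2 1.54, edgeR adjusted p = 0.00317) and mitochondrial malic enzyme Me2 from 100.2 ± 17.9 to 279 ± 55.0 CPM (log2 1.48, edgeR adjusted p = 0.00115). The lower genes were mitochondrial aspartate aminotransferase Got2 (log2 -0.95, edgeR adjusted p = 0.00116), cytosolic malic enzyme Me1 (log2 -1.47, edgeR adjusted p = 0.00137) and ATP citrate lyase Acly (log2 -0.58, edgeR adjusted p = 0.00393), the last of which cleaves the citrate exported by Slc25a1. In both groups Gpt was highest in replicates 1 and 2, as were the enterocyte marker sums. Enterocyte markers were higher and cell division markers lower in the knockout, and their part in these enzymes was not tested.

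Enzymes of ornithine, arginine and proline, which share substrates with Slc25a15, had 4 of 13 higher and 4 lower at a median of 0.20. Arginase Arg2, which makes ornithine, rose from 1.56 ± 0.798 to 47.5 ± 34.5 CPM (log2 4.96, edgeR adjusted p = 0.00116), ornithine transcarbamylase Otc, which turns it into citrulline, from 8.37 ± 3.94 to 54.5 ± 26.4 CPM (log2 2.70, edgeR adjusted p = 0.00204), and Nags, which makes the activator of the urea cycle's first enzyme, from 6.55 ± 1.91 to 28.0 ± 11.6 CPM (log2 2.10, edgeR adjusted p = 0.00176). The proline enzyme Aldh18a1 (log2 -0.51, edgeR adjusted p = 0.00599) and the arginine enzyme Ass1 (log2 -0.77, edgeR adjusted p = 0.00386) fell. Enterocyte markers were higher in the knockout, as Slc25a15, Arg2 and Otc were, and their part was not tested. Otc read 8.88, 8.52, 12.9 and 3.25 CPM in wild-type replicates 1 to 4 and 69.5, 83.3, 38.5 and 26.6 CPM in the knockout. Enterocyte marker sums in the same order were 12545, 12524, 4669 and 2660 CPM, and 98259, 83742, 29875 and 46396 CPM.

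**Figure D5:**
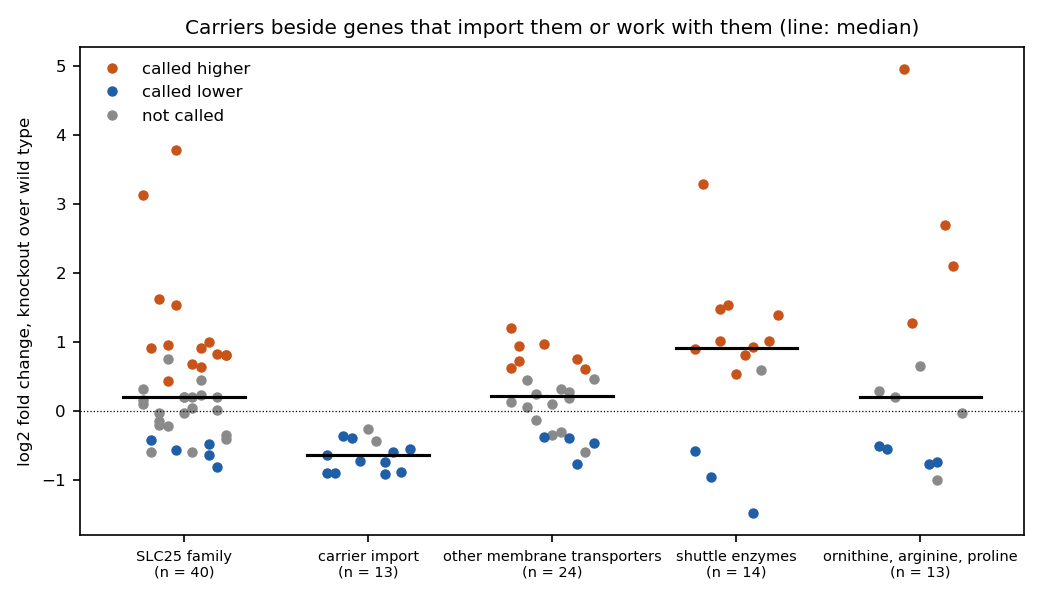
Log2 fold change, knockout over wild type, of each tested gene of the SLC25 family and of 4 lists of genes that import the carriers or work beside them, with a line at each median. The carrier import list has no point above 0 and a median of -0.63, while the family spans both directions with a median of 0.21.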

How the data were processed

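Total RNA of 8 libraries was measured, per the labels, and grouped by their genotype labels. The submitters' processing notes name HISAT2 and DESeq2, giving neither role nor version; the sources used here do not give the counting program, build, annotation or strandedness. The authors deposited read counts, of which 8.04 to 9.18% per library were not whole, so they were taken as estimated counts and rounded. The second set of deposited columns, which has no unit in its header, was taken as FPKM, since its ratio to the counts followed library totals within 1.67%.

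The test was edgeR's quasi-likelihood test (version 4.0.16, R 4.3.3) after filterByExpr and TMM, with genotype as the only term. A run on simulated counts changed few genes, equally up and down, so it cannot judge the scaling between libraries in these data. SE is the size of the log2 fold change over the square root of F. Ratios used log2 CPM with a prior count of 2. Alternatives used DESeq2 1.42.0, limma 3.58.1 (pseudocount 0.5), other scalings, filters and left-out libraries. Seed matches were sought in GENCODE M21 3′ regions on GRCm38, found for 46 of 47 members.

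Members and lists were chosen with earlier results of these data known. Values per library are given for members called with at least a 2-fold change, the 4 highest by FPKM and pairs reported in full. Some others were added after their values were seen. At most 3 genes called in each direction are named from other lists, and the uncalled Cps1 was named after its value was seen. Same-numbered libraries of the 2 groups deviated together (correlations of 0.311 to 0.524, against -0.478 to 0.447 for other numbers, with 7 of 8 libraries closest to their own number). The replicate number was therefore used as a block in an alternative fit and in the sign-flip test of the ratios. The main fit did not pair the libraries, so its p-values are unpaired. No label says what the replicate numbers mark. No library repeated another. Some genes of the family and of the other lists are not reported here.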

Additional observations from a re-analysis of the deposited data

Results flagged for a closer look

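In each group of 4 libraries, a value was picked out when its gap to the nearest other value, divided by the range, exceeded Dixon's critical value. Of 80 groups tested (40 carriers in 2 genotypes), 4 met this, all in wild type, and chance alone gives about 1 in 20. Slc25a23, an ATP-Mg/phosphate carrier, stood at 10.7 CPM in wild-type replicate 3 against 6.48 to 7.17 CPM in the others. Slc25a24, of the same subfamily, stood at 125 CPM in that library against 156 to 160 CPM, and it is the library with the highest fibroblast marker sum of the wild types. Slc25a30 stood at 9.25 CPM in wild-type replicate 4 against 6.13 to 6.46 CPM, and Slc25a46 at 40.7 CPM in wild-type replicate 1 against 47.5 to 48.7 CPM.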

How the results depend on the processing

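The count of carriers called higher, 14, was 10 to 15 over the 16 alternatives. The 5 called lower became 9 under upper-quartile factors, 11 under both total-count scaling and limma on log2 FPKM, 2 with replicates 1 to 3 alone and 1 to 7 with 1 library left out. The median of 0.21 became -0.0696 under total-count scaling and -0.0702 under limma on FPKM, and 0.0917 to 0.239 with 1 library left out. DESeq2 gave 14 higher and 6 lower.

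With the replicate number as a block, 15 were higher and 6 lower, which added Slc25a1 and Slc25a30 and changed no other carrier's call. Of the isoform ratios, 0 passed the threshold with all 8 libraries and 7 of the 11 without knockout replicate 3 and without knockout replicate 4. Because the permutation p has a smallest possible value, passing depends on how many pairs reach that value together. These counts do not measure the size of the changes.

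With replicates 1 to 3 alone, the import list had 7 lower, the other membrane transporters 4 higher and 2 lower, and the shuttle enzymes 6 higher. With 1 library left out, the other membrane transporters had 3 to 9 higher and 2 to 4 lower.

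Direction changed only among uncalled carriers. Total-count scaling gave Slc25a13 -0.256, Slc25a16 -0.0701, Slc25a23 -0.151, Slc25a29 -0.244, Slc25a3 -0.0690, Slc25a35 -0.0185, Slc25a38 -0.0834, Slc25a46 -0.119 and Ucp2 -0.0658. Limma on FPKM gave the same 9 as -0.241, -0.0525, -0.123, -0.152, -0.0713, -0.0385, -0.0780, -0.122 and -0.0692. Upper-quartile factors gave Slc25a13 -0.0565 and Slc25a29 -0.0824, no count filter gave Slc25a29 -0.0276, a mean of at least 50 counts gave Slc25a40 0.0053, and replicates 1 to 3 gave Slc25a23 -0.0965 and Slc25a40 0.0667. With 1 library left out, Slc25a13 ran from -0.128 to 0.173, Slc25a14 from -0.135 to 0.0856, Slc25a23 from -0.0378 to 0.299, Slc25a29 from -0.177 to 0.0900 and Slc25a40 from -0.108 to 0.0345. The cause of these changes was not tested. The count filter left 7 of the 47 members untested.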
